A study of Mus musculus with 12 samples.

Results

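The genes described here encode matrix metalloproteases (MMPs), ADAMTS proteases and tissue inhibitors of metalloproteases (TIMPs), which together cut, remodel and protect the extracellular matrix. They were taken by symbol alone, as every gene named Mmp, Adamts or Timp followed by a number (with a letter for some MMPs) that has a transcript cluster of its own on the array. There were 44 such genes (22 MMPs, 18 ADAMTS enzymes and 4 TIMPs) of 19938 genes with a single symbol. They lie on 68 of 21789 transcript clusters, the array's unit of one transcript. For a gene with several clusters the brightest over all arrays was used. Mmp15 and Adamts2 had no cluster carrying their symbol alone and were not analysed here.

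The cells were fibro/adipogenic progenitors (FAPs), the stromal cells between muscle fibres, from uninjured hindlimb muscle of male C57/Bl6 mice aged 8 to 12 weeks. They were grown for 2.5 days, transfected with 10 µM of an antisense oligonucleotide (AMO) for 48 hours, and transfected again with the same AMO for a further 48 hours with or without the growth factor PDGF-AA. The 6 groups were pA AMO, 5'ss AMO and control AMO with PDGF-AA, at a dose the labels give as 50 uM, and each of the same AMOs without it. The pA AMO is directed at an intronic polyadenylation site of the PDGF receptor gene Pdgfra and the 5'ss AMO at a 5' splice site that the labels call intronic. Each group had 2 Affymetrix Mouse Gene 1.0 ST arrays, and each replicate pooled cells of 2 mice. All groups, controls included, were transfected cultured cells, and the labels used here name no sorting markers for the isolation.

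MMPs are secreted or membrane-anchored zinc proteases made as inactive proenzymes. ADAMTS enzymes are related secreted proteases that cut proteoglycans such as aggrecan and versican, trim procollagens and process other matrix proteins, and TIMPs bind and block the active sites of both families to different extents. FAPs and fibroblasts are a main source of these proteins in muscle, where matrix turnover accompanies repair and fibrosis, and the PDGF receptor alpha marks FAPs. AP-1, the Fos and Jun family of transcription factors that growth factors induce, is a textbook regulator of several MMP genes and recognises the letters TGANTCA.

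In the RefSeq annotation of the assembly GRCm38.p6, 10 of the 22 MMP genes stand in a row on chromosome 9, in the order Mmp13, Mmp12, Mmp1b, Mmp3, Mmp1a, Mmp10, Mmp8, Mmp27, Mmp20 and Mmp7, with 0 other protein-coding genes between them. A promoter sequence, running from 250 bases before to 50 bases after the annotated start, was found for 30 of the 44 genes. TGANTCA, which reads the same on both strands, was present in 8 of the 10 genes of this row and in 0 of the 20 genes elsewhere. A gene was counted when any of its windows held it, and Mmp12 and Mmp7 each had another window without it. Among all 32851 promoter windows of that length, counted singly and not by gene, 7.81% held TGANTCA. These stretches of 41 bases, on the strand of each gene and from RefSeq GRCm38.p6, surround the match in those 8 genes of the row. Capitals mark the match.
Mmp13, chr9:7272462-7272502, plus strand: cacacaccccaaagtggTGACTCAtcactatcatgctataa
Mmp12, chr9:7347313-7347353, plus strand: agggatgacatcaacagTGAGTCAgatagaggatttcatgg
Mmp1b, chr9:7388096-7388136, minus strand: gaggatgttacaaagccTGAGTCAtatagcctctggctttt
Mmp3, chr9:7445759-7445799, plus strand: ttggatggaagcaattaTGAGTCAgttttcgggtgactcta
Mmp1a, chr9:7464051-7464091, plus strand: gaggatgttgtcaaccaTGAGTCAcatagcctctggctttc
Mmp10, chr9:7502262-7502302, plus strand: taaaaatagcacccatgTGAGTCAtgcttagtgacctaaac
Mmp20, chr9:7628119-7628159, plus strand: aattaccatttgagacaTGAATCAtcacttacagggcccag
Mmp7, chr9:7692010-7692050, plus strand: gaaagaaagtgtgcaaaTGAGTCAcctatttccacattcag

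In all 8 the match lay before the annotated start of its window. At the extremes, its first base was 35 bases before that start in Mmp13 and 95 bases before it in Mmp20. The letters were TGAGTCA in 6 genes, TGACTCA in Mmp13 and TGAATCA in Mmp20. A match of letters is not a bound site, and the windows of Mmp8 and Mmp27 held none.

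The 250 bases before the start are shown for Mmp23 and Adamts1, the genes that stood out most with PDGF-AA below. TATAAA, the TATA box letters, is in capitals in Adamts1, where it begins 32 bases before the start. On the gene's own strand 8.32% of all windows held TATAAA, and 13.6% on either strand. It is not particular to Adamts1 among the 44 genes. A window of Mmp21 also held it on the gene's own strand. So did a window of each row gene with TGANTCA: Mmp13, Mmp12, Mmp1b, Mmp3, Mmp1a, Mmp10, Mmp20 and Mmp7. The Mmp23 sequence holds neither TATAAA nor TGANTCA.
Mmp23, chr4:155653385-155653634, minus strand: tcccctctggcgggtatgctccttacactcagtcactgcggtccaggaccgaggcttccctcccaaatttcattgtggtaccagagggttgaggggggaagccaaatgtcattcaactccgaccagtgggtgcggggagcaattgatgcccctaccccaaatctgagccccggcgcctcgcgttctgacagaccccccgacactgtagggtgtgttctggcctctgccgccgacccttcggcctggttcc
Adamts1, chr16:85803114-85803363, minus strand: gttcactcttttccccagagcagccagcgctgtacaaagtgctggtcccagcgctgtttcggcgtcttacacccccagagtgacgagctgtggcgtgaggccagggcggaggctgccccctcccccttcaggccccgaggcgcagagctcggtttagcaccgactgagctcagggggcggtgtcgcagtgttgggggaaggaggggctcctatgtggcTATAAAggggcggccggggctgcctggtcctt

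Expression is given on the log2 scale, as robust multi-array averaging (RMA) by the authors left it. Array medians over all clusters were 6.14 to 6.23 in replicate 1 and 6.04 to 6.10 in replicate 2. Over the 21789 clusters with a single symbol, the median of replicate 2 minus replicate 1 lay between -0.0058 and 0.018 by group. Values of different genes depend on their own probes, so a bright gene is not shown to have more transcripts than a dim one. Of the 44 genes, 34 had a mean above 5.52, the value below which 40% of all 35556 clusters lie, with or without a gene symbol. These were 15 MMPs, 16 ADAMTS enzymes and 3 TIMPs. The 10 dimmer genes were Mmp1a, Mmp1b, Mmp7, Mmp8, Mmp12, Mmp20, Mmp21, Adamts18, Adamts20 and Timp4, with means from 2.79 (Mmp1b) to 5.49 (Adamts18).

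The brightest clusters were those of proteins with broad matrix roles. Mmp2, a gelatinase that digests denatured collagen and basement membrane, had a mean of 12.96, above 99.7% of all 35556 clusters. Timp1 (12.93), Timp2 (12.68), Adamts5 (12.32), Mmp14 (11.88), Mmp3 (11.79) and Timp3 (11.78) followed. Mmp14 is the membrane-bound protease that activates pro-Mmp2 in a complex with Timp2, and Mmp3 is stromelysin-1. Adamts5 is a main aggrecanase of mouse cartilage, and Timp3 is the TIMP that inhibits several ADAMTS enzymes. Adamts1 (10.33), Mmp19 (10.14), Mmp11 (9.40), Mmp23 (9.15) and Adamts12 (9.07) came next.

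**Figure D1:**
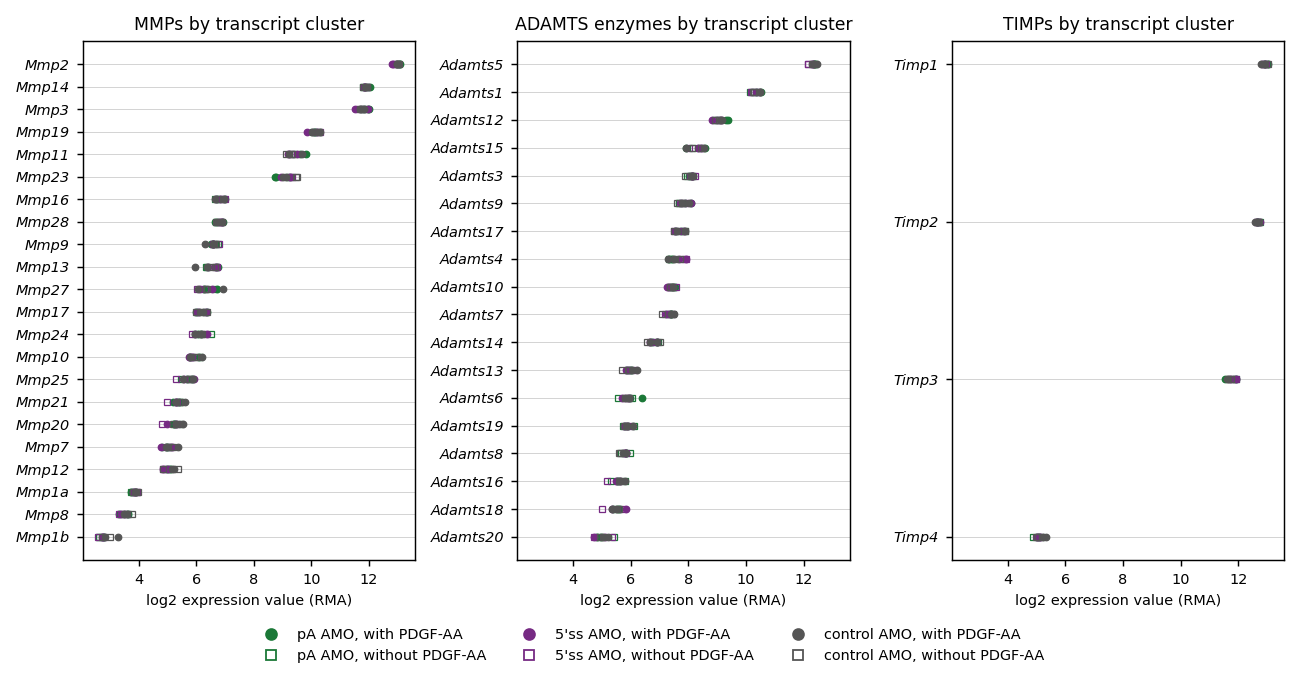
Log2 expression value (x axis) of each of the 44 genes (rows) on each of the 12 arrays, in panels for MMPs, ADAMTS enzymes and TIMPs, with each point an array. The points of most genes lie close together beside the distances between genes, with Mmp2 between 12.78 and 13.08 and Mmp1b between 2.58 and 3.28.

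The cell label was set against marker genes. Of 14 FAP markers 13 were measured, all 13 above 5.52, and the brightest was Dcn (decorin) at 13.32. Macrophage and leukocyte markers were dimmer, with 5 of 9 above 5.52 and Cd68 highest at 7.23, and endothelial markers had 5 of 7 above it, with Tek highest at 8.80. Myogenic markers had 10 of 11 above it, with Acta1 highest at 10.08, smooth muscle and pericyte markers 6 of 7 with Abcc9 at 8.91, and tendon markers 6 of 7 with Comp at 9.56. The arrays' median over the myogenic list lay between 6.63 and 7.02 with PDGF-AA, and between 6.48 and 7.51 without it. Those ranges pool the AMOs. With pA AMO alone, all 11 myogenic markers had a negative log2 change with PDGF-AA (median -0.46, 0 called), against a median of -0.0064 over all clusters. With 5'ss AMO 8 of the 11 were above 0 (median 0.097), and with control AMO 9 of the 11 (median 0.070). The part of other cells in the results below was not tested. In a bulk sample, fewer cells of a type and less RNA per cell cannot be told apart.

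The effect of PDGF-AA, averaged over the 3 AMOs, asks which of these genes differed with the growth factor. None of the 44 genes passed the test by limma (adjusted p under 0.05), and 0% of all 21789 clusters did. At an unadjusted p under 0.05 there were 4 of the 44, or 9.09%, against 3.39% of all clusters: Adamts1 and Adamts12 with positive changes and Mmp23 and Mmp9 with negative ones. In a limma fit that also took the replicate number as a block, 1 of the 44 was called, Mmp23, against 0.0964% of all clusters, and 5 of the 44, or 11.4%, had an unadjusted p under 0.05, against 8.02% of all clusters. The median log2 change of the 44 was 0.014, against 0.0014 over all clusters, with 25 above 0 and 19 below. By family, 11 MMPs were above 0 and 11 below, 13 ADAMTS enzymes above and 5 below, and 1 TIMP above and 3 below. All p-values measure the spread between these pooled cultures, and 2 arrays a group limit the precision.

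Mmp23 fell with PDGF-AA in the fit with the replicate block. It encodes a membrane-anchored MMP that lacks the hemopexin domain of most of its relatives and is released by furin-type cleavage. With pA AMO its cluster had 8.72 and 8.79 on the arrays with PDGF-AA, against 9.19 and 9.26 without it. With 5'ss AMO it had 8.95 and 9.26 with PDGF-AA, against 9.24 and 9.33 without. With control AMO it had 9.01 and 9.12 with PDGF-AA, against 9.45 and 9.51 without. Within pA AMO and within control AMO the doses did not overlap, while with 5'ss AMO replicate 2 with PDGF-AA lay between the arrays without it. In all 6 pairs of arrays with the same AMO and replicate number the value was lower with PDGF-AA. This held for 1 of the 44 genes, and for 2.31% of all clusters.

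Averaged over AMOs, the log2 change of Mmp23 was -0.35 (SE 0.067), a 0.784-fold level, with adjusted p = 0.342 by limma, and 0.0481 (SE 0.048) with the replicate block. That call was lost when any of 11 of the 12 arrays was left out (adjusted p 0.0982 to 0.222 in the limma fit with the block) and kept without replicate 2 of 5'ss AMO with PDGF-AA, at adjusted p = 0.0340. Over the 12 such fits the log2 change lay between -0.39 and -0.31. By AMO, the change was -0.47 (SE 0.12) for pA, -0.18 (SE 0.12) for 5'ss and -0.41 (SE 0.12) for control. These did not differ detectably between AMOs: the difference was 0.23 (SE 0.16) for 5'ss minus control AMO and -0.29 (SE 0.16) for pA minus 5'ss AMO, each with adjusted p = 1.00 by limma. Of the tendon markers, 6 of 7 were also below 0 for PDGF-AA averaged over AMOs (median -0.16, 2 called with the block). By AMO, 5 of 7 were below 0 for pA (median -0.23), 2 of 7 for 5'ss (median 0.076) and 6 of 7 for control (median -0.28). Their part in the value of Mmp23 was not tested.

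**Figure D2:**
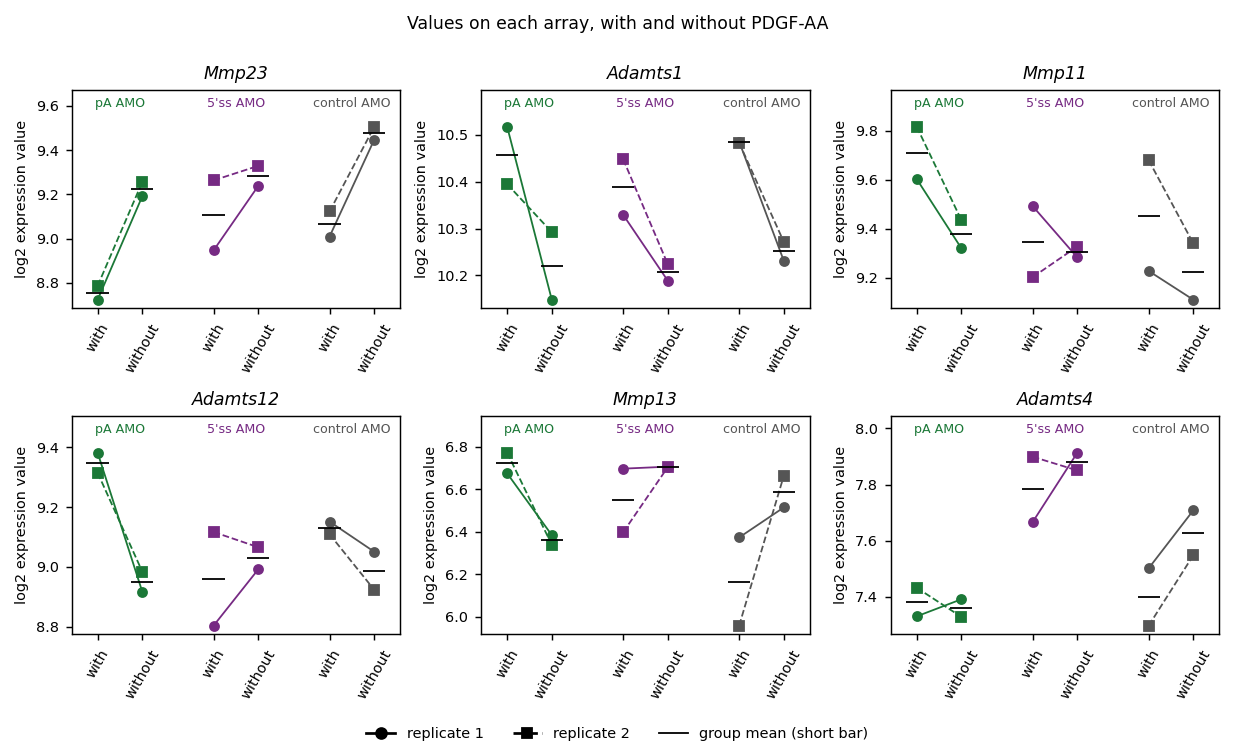
Log2 expression value (y axis) of 6 of the genes on each array, with PDGF-AA left of without PDGF-AA within each AMO, each point an array. Mmp23 is lower with PDGF-AA in both replicates of every AMO, least in replicate 2 of 5'ss AMO (9.26 with and 9.33 without), and Adamts1 is higher with PDGF-AA on all 6 arrays.

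Adamts1 was the gene whose arrays separated by PDGF-AA. It encodes a protease that cuts versican and aggrecan. It had 10.52 and 10.39 with pA AMO and PDGF-AA, against 10.15 and 10.29 with pA AMO alone. It had 10.33 and 10.45 with 5'ss AMO and PDGF-AA, against 10.19 and 10.22 with 5'ss AMO alone. It had 10.49 and 10.48 with control AMO and PDGF-AA, against 10.23 and 10.27 with control AMO alone. The lowest of the 6 arrays with PDGF-AA, 10.33, was above the highest of the 6 without, 10.29. This was 1 of the 44 genes without overlap in either direction, against 0.28% of all clusters. All 6 pairs of arrays with the same AMO and replicate number were higher with PDGF-AA, which held for 1 of the 44 genes and for 1.68% of all clusters. The log2 change was 0.22 (SE 0.056), a 1.16-fold level, which did not pass the limma test (adjusted p = 0.660, and 0.188 with the replicate block). Taken for each AMO separately, it was 0.24 with pA, 0.18 with 5'ss and 0.23 with control (SE 0.098 each).

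Other proteoglycan-cutting ADAMTS enzymes had smaller values. Adamts5, which stands next to Adamts1 on the chromosome with 0 protein-coding genes between them, had a log2 change of 0.089 (SE 0.051). The change was 0.17 (SE 0.085) for Adamts9, a versican protease, and -0.10 (SE 0.068) for Adamts4, an aggrecanase. Of the 7 genes of this kind, 5 were above 0 and 2 below, with a median of 0.074 and 0 called.

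Adamts12, known to cut the cartilage oligomeric matrix protein COMP, had its largest change with pA AMO. It had 9.38 and 9.31 with pA AMO and PDGF-AA, against 8.92 and 8.98 with pA AMO alone. It had 8.80 and 9.12 with 5'ss AMO and PDGF-AA, against 8.99 and 9.07 with 5'ss AMO alone. It had 9.15 and 9.11 with control AMO and PDGF-AA, against 9.05 and 8.92 with control AMO alone. The doses were apart with pA and control AMO and overlapped with 5'ss AMO. By AMO, the log2 change was 0.40 (SE 0.12) for pA, -0.069 (SE 0.12) for 5'ss and 0.14 (SE 0.12) for control. The difference between pA and 5'ss AMO was 0.47 (SE 0.16) and did not pass, with adjusted p = 1.00 by limma and 0.921 with the block. The myogenic markers, all 11 below 0 with pA AMO, had a median of -0.67 in that same difference, with 10 of 11 below 0 and 0 called. Their part in the value of Adamts12 was not tested. Adamts7, the other COMP-cutting enzyme, had an averaged change of 0.061.

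**Figure D3:**
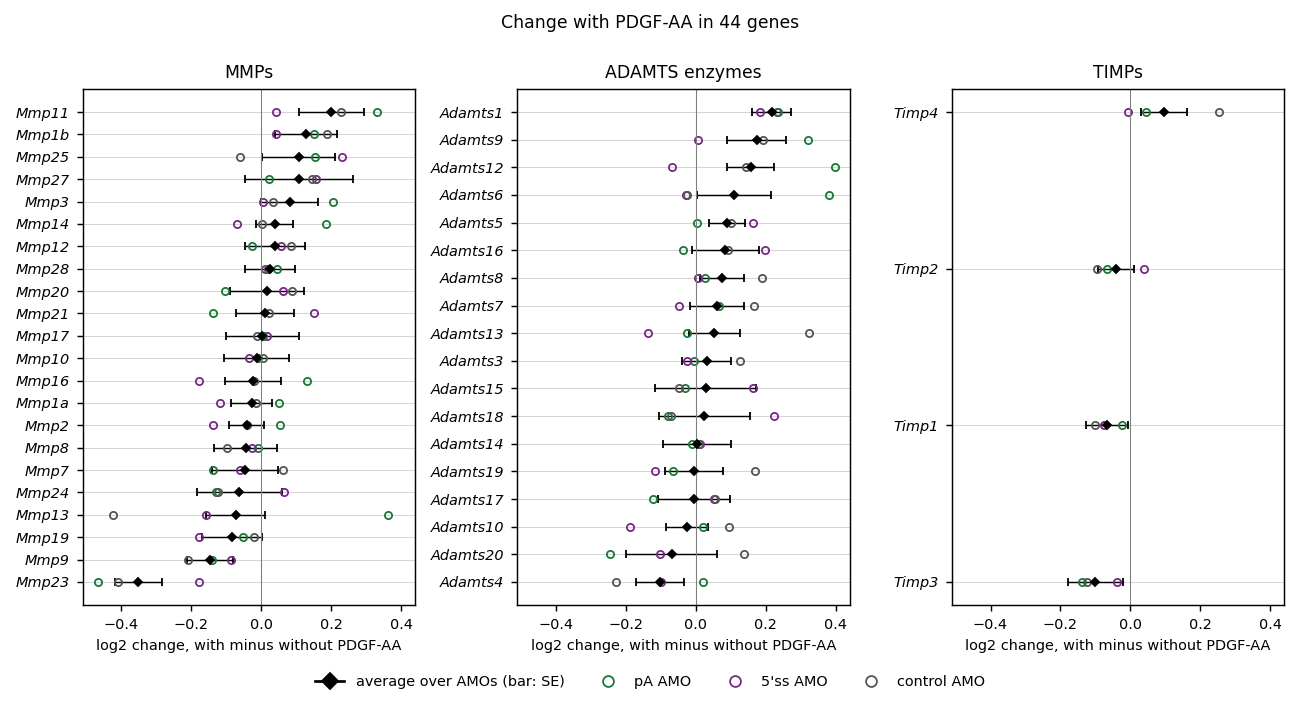
Log2 change with PDGF-AA (x axis, with minus without) of each of the 44 genes (rows), for each AMO and averaged over AMOs. Mmp23 has the most negative average (-0.35) and Adamts1 the most positive (0.22), and most averages lie near 0.

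Mmp13, the main interstitial collagenase of mice, had changes of opposite sign between AMOs. It had 6.67 and 6.77 with pA AMO and PDGF-AA, against 6.38 and 6.34 with pA AMO alone. It had 6.70 and 6.40 with 5'ss AMO and PDGF-AA, against 6.71 and 6.70 with 5'ss AMO alone. It had 6.37 and 5.96 with control AMO and PDGF-AA, against 6.51 and 6.66 with control AMO alone. With pA AMO both arrays with PDGF-AA were the higher ones, and with control AMO both were the lower ones. By AMO, the log2 change was 0.36 (SE 0.15) for pA, -0.16 (SE 0.15) for 5'ss and -0.42 (SE 0.15) for control. The difference for pA minus control AMO was 0.78 (SE 0.21) and did not pass (adjusted p = 1.00 by limma, 0.450 with the replicate block). In the same difference all 11 myogenic markers were below 0 (median -0.53, 0 called), and their part in the value of Mmp13 was not tested. The difference for pA minus control AMO uses the same arrays as the changes given for pA and for control AMO.

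Within single AMOs no gene of the 44 was called, with or without the block, and 0% of all clusters were called in each. At an unadjusted p under 0.05 there were 4 of the 44 with pA AMO (2.37% of all clusters), 0 with 5'ss AMO (1.64%) and 5 with control AMO (4.81%). With control AMO these included Adamts13, the protease of von Willebrand factor. It had 6.22 and 6.06 with control AMO and PDGF-AA, against 5.94 and 5.70 with control AMO alone. The doses did not overlap there, and the log2 change was 0.32 (SE 0.13), with adjusted p = 0.984 by limma and 0.167 with the block. Its values were 6.00 and 5.86 with pA AMO and PDGF-AA, against 6.01 and 5.90 with pA AMO alone, and 5.95 and 5.85 with 5'ss AMO and PDGF-AA, against 6.16 and 5.92 with 5'ss AMO alone. For pA AMO the log2 change was -0.026, and for 5'ss AMO it was -0.14. The difference between the PDGF-AA effects with 5'ss and control AMO was -0.46 (SE 0.18, adjusted p = 1.00 by limma and 0.467 with the block). In each of the 3 differences between PDGF-AA effects, 0% of clusters and 0 of the 44 genes were called, with or without the block. At an unadjusted p under 0.05 they held 1 of the 44 genes for 5'ss minus control AMO (Adamts13; 2.95% of all clusters), 1 for pA minus control AMO (Mmp13; 2.59%) and 2 for pA minus 5'ss AMO (Adamts12 and Mmp13; 1.92%).

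With 5'ss AMO the smallest p were those of Adamts1, Adamts5 and Adamts10, a fibrillin-binding ADAMTS enzyme. Adamts10 had 7.24 and 7.33 with 5'ss AMO and PDGF-AA, against 7.57 and 7.38 with 5'ss AMO alone. The doses were apart there and overlapped with pA AMO, where it had 7.53 and 7.40 with PDGF-AA against 7.38 and 7.51 without. With control AMO it had 7.45 and 7.46 with PDGF-AA against 7.34 and 7.37 without, with the higher values on the PDGF-AA side. The change with 5'ss AMO was -0.19 (SE 0.10) for Adamts10 and 0.16 (SE 0.088) for Adamts5.

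The brightest MMPs had averaged changes near 0. Mmp14 had 12.04, 11.95, 11.84, 11.82, 11.84 and 11.89 in replicates 1 and 2 of pA, 5'ss and control AMO with PDGF-AA, against 11.82, 11.80, 11.91, 11.88, 11.93 and 11.80 without it. Mmp3 had 11.97, 11.99, 11.97, 11.51, 11.82 and 11.70 in that order with PDGF-AA, against 11.78, 11.78, 11.66, 11.81, 11.70 and 11.75 without it. Over all AMOs together the doses overlapped in both genes, and in Mmp3 the arrays with PDGF-AA spanned both the highest and the lowest value. Within pA AMO the doses were apart in both genes, with the higher values on the PDGF-AA side. Within 5'ss AMO those of Mmp14 were apart with the lower values on that side. They overlapped for Mmp14 with control AMO, and for Mmp3 with 5'ss and control AMO. Mmp2, whose values are given further below, had the doses apart within each AMO but not in 1 direction. Its values were higher with PDGF-AA for pA AMO and lower for 5'ss and control AMO. Averaged log2 changes were -0.042 (SE 0.049) for Mmp2, 0.039 (SE 0.053) for Mmp14 and 0.081 (SE 0.080) for Mmp3.

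Mmp11 and Mmp9 had larger averages. Mmp11, a stromelysin activated inside the cell by furin, had 9.60 and 9.82 with pA AMO and PDGF-AA, against 9.32 and 9.44 with pA AMO alone. With 5'ss AMO it had 9.49 and 9.20 with PDGF-AA against 9.28 and 9.33 without, and with control AMO 9.23 and 9.68 with PDGF-AA against 9.11 and 9.34 without. The doses overlapped with 5'ss and control AMO and were apart with pA AMO, and the averaged change was 0.20 (SE 0.094). Mmp9, the other gelatinase, had an averaged change of -0.15 (SE 0.066), with adjusted p = 1.00 by limma and 0.578 with the block.

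No TIMP was called in any comparison. Over the pairs of arrays of pA, 5'ss and control AMO, Timp1 had 13.04, 12.89, 12.94, 12.81, 12.93 and 12.78 with PDGF-AA, against 13.00, 12.98, 12.97, 12.93, 13.03 and 12.87 without it. Timp2 had 12.65, 12.70, 12.75, 12.65, 12.57 and 12.64 with PDGF-AA, against 12.73, 12.76, 12.66, 12.66, 12.69 and 12.71 without it. Both inhibitors stayed within a narrow band, whose doses overlapped over all AMOs together. Within pA AMO and within control AMO, both arrays of Timp2 with PDGF-AA were below both without it. Timp3 had 11.94, 11.53, 11.72, 11.91, 11.66 and 11.62 with PDGF-AA, against 11.91, 11.83, 11.91, 11.79, 11.76 and 11.76 without it. Timp4 had 5.01, 5.09, 5.12, 5.03, 5.22 and 5.32 with PDGF-AA, against 5.15, 4.87, 5.11, 5.06, 5.06 and 4.98 without it. In Timp3 the arrays with PDGF-AA held both extremes, and in Timp4 the highest values were those of control AMO with PDGF-AA. Averaged changes were -0.067 (SE 0.061) for Timp1, -0.041 (SE 0.051) for Timp2, -0.10 (SE 0.078) for Timp3 and 0.096 (SE 0.065) for the dim Timp4.

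The AMOs were compared next, averaged over both doses of PDGF-AA. No gene of the 44 was called for pA against control AMO, 5'ss against control AMO or pA against 5'ss AMO, and 0% of all clusters were. With the replicate block the share of all clusters called was 0% for pA against control AMO, 0.0138% for 5'ss against control AMO and 0.0275% for pA against 5'ss AMO, and again 0 of the 44 were called. At an unadjusted p under 0.05 there were 2 of the 44 for pA against control AMO (3.25% of all clusters), 5 for 5'ss against control AMO (4.8%) and 4 for pA against 5'ss AMO (3.47%). The comparisons share arrays, so their values are set side by side.

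Adamts4 had its highest values with 5'ss AMO. With pA AMO it had 7.33 and 7.43 with PDGF-AA and 7.39 and 7.33 without. With 5'ss AMO it had 7.67 and 7.90 with PDGF-AA and 7.91 and 7.85 without. With control AMO it had 7.50 and 7.30 with PDGF-AA and 7.71 and 7.55 without. The 4 arrays of pA AMO lay below the 4 of 5'ss AMO with no overlap. The log2 change was -0.46 (SE 0.083) for pA against 5'ss AMO, 0.32 (SE 0.083) for 5'ss against control AMO and -0.14 (SE 0.083) for pA against control AMO. None passed by limma (adjusted p = 0.702, 0.853 and 1.00 in that order). With the block in limma the adjusted p was 0.158 for pA against 5'ss AMO and 0.205 for 5'ss against control AMO.

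Mmp2 and Adamts5 had lower values on all 4 arrays of 5'ss AMO than on any of pA AMO. Mmp2 had 13.03, 13.08, 12.99 and 13.01 with pA AMO, against 12.78, 12.83, 12.93 and 12.95 with 5'ss AMO. It had 12.96, 12.97, 13.02 and 12.99 with control AMO. The first pair of each 4 is with PDGF-AA. All 4 arrays of 5'ss AMO were below all 4 of either other AMO, by a log2 difference of 0.16 (SE 0.060) for pA against 5'ss AMO and of -0.11 (SE 0.060) for 5'ss against control AMO. Adamts5 had 12.36, 12.40, 12.36 and 12.39 with pA AMO, against 12.33, 12.29, 12.16 and 12.14 with 5'ss AMO in the same order. Its control AMO arrays had 12.37, 12.46, 12.28 and 12.34. Its values with 5'ss AMO overlapped those with control AMO, and the change for pA against 5'ss AMO was 0.15 (SE 0.062). None of these passed the limma test. In all, 3 of the 44 genes had no overlap between pA and 5'ss AMO (2.65% of all clusters), 1 between 5'ss and control AMO (2.97%), and 0 between pA and control AMO (2.65%).

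Mmp23 had a log2 change of -0.28 (SE 0.082) for pA against control AMO, with adjusted p = 1.00 by limma and 0.326 with the block. Its values with pA AMO without PDGF-AA, 9.19 and 9.26, were above those of control AMO with PDGF-AA, 9.01 and 9.12, so the AMOs overlapped only across doses. Within a dose they did not: pA AMO had 8.72 and 8.79 with PDGF-AA, against 9.01 and 9.12 for control AMO, and 9.19 and 9.26 without it, against 9.45 and 9.51 for control AMO. For pA against control AMO with PDGF-AA, Mmp13 had a change of 0.56 (SE 0.15, adjusted p = 0.950 by limma). With the block in limma, the smallest adjusted p among the 44 genes in that comparison was 0.208. For 5'ss against control AMO averaged over doses, the log2 change was 0.25 (SE 0.10) for Mmp13 and -0.25 (SE 0.11) for Mmp12. Mmp12 is the macrophage elastase, and its cluster is among the dim ones. Mmp12 had 5.01, 4.84, 4.85 and 4.89 with 5'ss AMO, against 5.22, 5.17, 5.36 and 4.86 with control AMO (with PDGF-AA first), and 1 control array lay among those of 5'ss AMO. With pA AMO it had 5.09, 4.99, 5.10 and 5.03. Mmp1b, a rodent collagenase relative whose cluster is the dimmest of the 44, had 2.75, 2.80, 2.62 and 2.63 with pA AMO, against 3.28, 2.83, 2.72 and 3.01 with control AMO. With 5'ss AMO it had 2.72, 2.75, 2.81 and 2.58. The log2 change was -0.26 (SE 0.11) for pA against control AMO, and 1 array, replicate 1 of control AMO with PDGF-AA, stood above the rest.

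The same AMO comparisons at single doses gave no call among the 44 genes, with or without the block, and 0% of all clusters without it. With the block, 5'ss against control AMO called 0.101% of all clusters with PDGF-AA and 0.00459% without it, and 0% were called for pA against control AMO at either dose. At an unadjusted p under 0.05 there were 2 of the 44 for pA against control AMO with PDGF-AA, Mmp13 and Mmp23 (4.89% of all clusters), and 1 without, Adamts4 (1.49%). For 5'ss against control AMO there were 2 with PDGF-AA, Adamts4 and Mmp13 (6% of all clusters), and 0 without (2.07%).

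The chromosome 9 row of MMP genes did not move as one. For PDGF-AA averaged over AMOs, 5 of the 10 genes were above 0 and 5 below, with a median of 0.0020. For 5'ss against control AMO, 2 were above 0 and 8 below, with a median log2 change of -0.16 and Mmp13 at the upper end (0.25). For pA against control AMO, 3 were above 0 and 7 below, with a median of -0.095. Of these 10 genes, 6 have dim clusters (Mmp1a, Mmp1b, Mmp7, Mmp8, Mmp12 and Mmp20). The medians over all clusters were 0.0014, -0.0084 and -0.011 in these comparisons, and 0 of the 10 genes passed in any of them.

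Adamts3, a protease that trims procollagen and activates the growth factor VEGF-C, is measured by 16 transcript clusters, Adamts9 by 6 and Adamts17 by 5. For 5'ss against control AMO, all 16 Adamts3 clusters had a positive log2 change, between 0.085 and 0.42 with a median of 0.18. The brightest, used above, had the smallest of these. An unadjusted p under 0.05 was found for 8 of the 16, and 0 were called, with or without the block. The smallest adjusted p was 0.684 by limma and 0.118 with the block. For pA against 5'ss AMO all 16 were negative, and for pA against control AMO 14 were positive with a median of 0.042. Clusters of 1 gene share its transcripts and the same arrays, so they are not replicates. For PDGF-AA averaged over AMOs, 8 of the 16 were positive and 8 negative. By AMO, 13 were positive with pA AMO, 1 with 5'ss AMO and 4 with control AMO. In the difference between the PDGF-AA effects with pA and 5'ss AMO all 16 were positive (median 0.30), and 0 were called.

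All 6 clusters of Adamts9 were positive for PDGF-AA averaged over AMOs (0.038 to 0.17) and for 5'ss against control AMO (0.029 to 0.33), and 0 were called. These averages combine unlike values. For PDGF-AA, 6 were positive with pA AMO, 6 with control AMO and 2 with 5'ss AMO. For 5'ss against control AMO, 6 were positive without PDGF-AA and 3 with it. The 5 clusters of Adamts17 disagreed for PDGF-AA, 1 being positive and 4 negative.

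**Figure D4:**
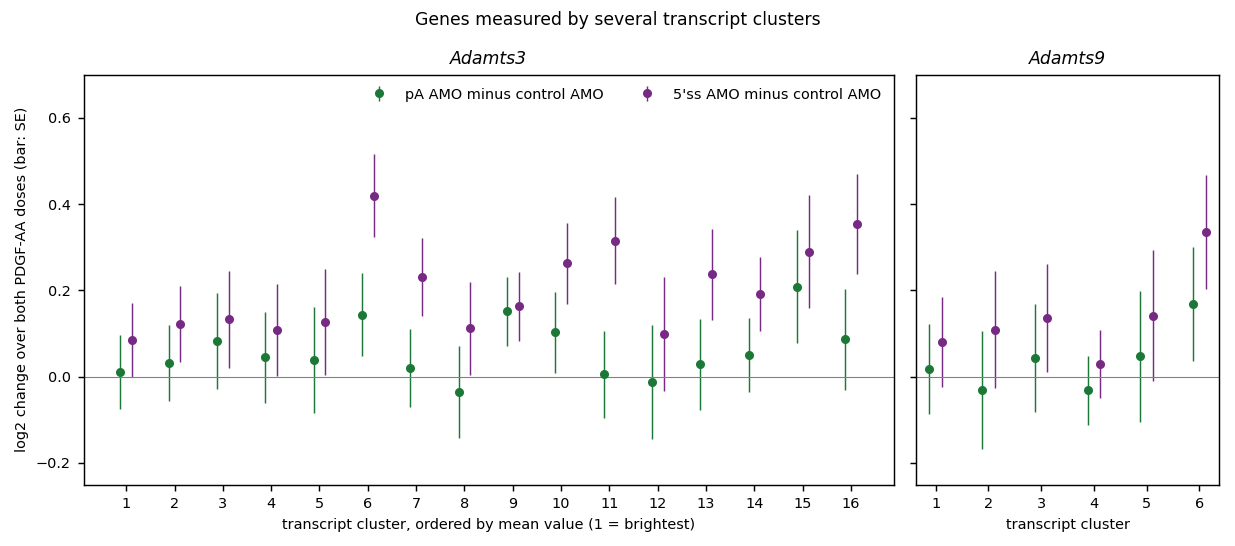
Log2 change (y axis) of each transcript cluster of Adamts3 and Adamts9, ordered by brightness (x axis), for the comparisons named in the legend. All 16 Adamts3 clusters lie above 0 for 5'ss against control AMO, and the brightest is the closest to 0 (0.085).

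Some of these genes differed by replicate number in every group, as did many clusters of the whole array. For each of the 12 arrays the most similar other array, over all clusters, carried the same replicate number, and for 0 of them was it the group's second array. In all 6 groups replicate 2 was above replicate 1 for Mmp19 and Mmp23, by a mean of 0.21 and 0.12. That is 2 of the 44 genes, or 4.55%, against 17% of all clusters. Replicate 2 was below replicate 1 in all 6 groups for 9 genes, or 20.5%, against 14% of all clusters. These 9 were Mmp17, Mmp20, Mmp24, Adamts7, Adamts13, Adamts14, Adamts17, Adamts20 and Timp1. Mmp19, a secreted MMP of many tissues, had 10.07, 9.86 and 10.02 in replicate 1 of pA, 5'ss and control AMO with PDGF-AA, and 10.14, 10.18 and 10.30 in replicate 2. Without PDGF-AA it had 10.04, 10.10 and 10.09 in replicate 1 and 10.27, 10.29 and 10.28 in replicate 2. The doses of PDGF-AA overlapped, and the gap between replicates recurred in each group.

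The widest single gap was in Mmp27, at 6.07 and 6.93 in the 2 arrays of control AMO with PDGF-AA, against 6.35 and 6.36 without it. It had 6.26 and 6.73 with pA AMO and PDGF-AA against 6.31 and 6.64 with pA AMO alone, and 6.53 and 6.12 with 5'ss AMO and PDGF-AA against 6.04 and 6.30 with 5'ss AMO alone. The doses overlapped with each of the 3 AMOs. Adamts15, a versican protease, had 7.92 and 8.58 with pA AMO and PDGF-AA against 8.15 and 8.42 without, and 8.43 and 8.33 with 5'ss AMO and PDGF-AA against 8.04 and 8.40 without. With control AMO it had 7.93 and 8.55 with PDGF-AA against 8.14 and 8.43 without. Replicate 2 was the higher one in 5 of the 6 groups. Adamts6, with the widest range of the ADAMTS enzymes, had 6.40 and 5.96 with pA AMO and PDGF-AA against 5.54 and 6.06 without, 5.69 and 5.94 with 5'ss AMO and PDGF-AA against 5.89 and 5.81 without, and 5.79 and 5.89 with control AMO and PDGF-AA against 5.81 and 5.93 without. Its extremes, 6.40 and 5.54, were both replicate 1 of pA AMO, and the doses overlapped with each AMO. What the replicate numbers share is not stated in the labels.

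**Figure D5:**
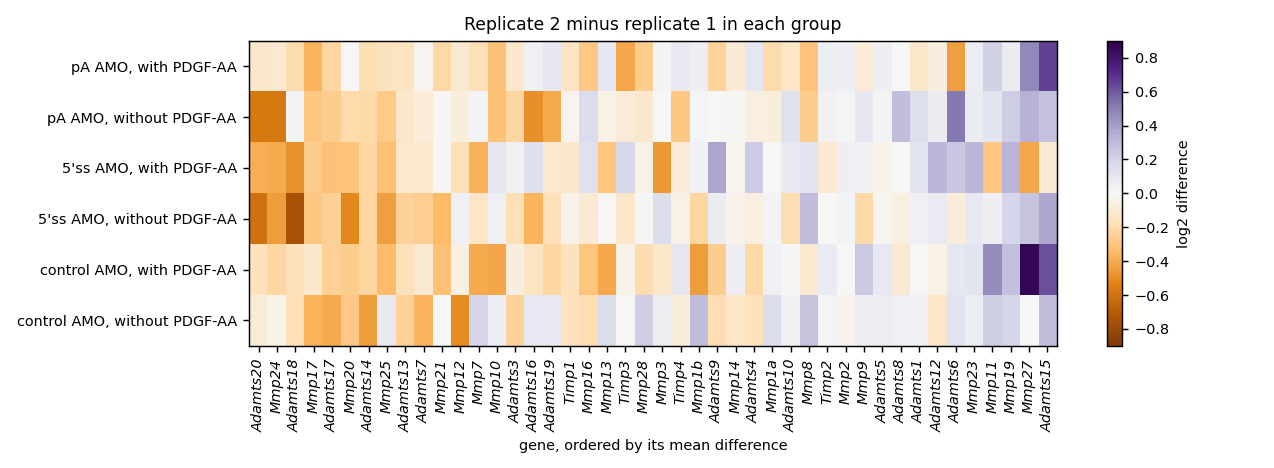
Replicate 2 minus replicate 1 on the log2 scale (colour) for each gene (x axis, ordered by its mean difference) in each of the 6 groups (rows). Columns of a single colour at both ends are genes such as Timp1, lower in replicate 2 in all 6 groups, and Mmp19, higher in all 6.

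Genes that work beside these families were read from lists of known members. Of 37 other matrix proteases and regulators 35 were measured, and 0 were called for PDGF-AA averaged over AMOs, with or without the block. Their median log2 change was 0.014. The smallest p was that of Pappa, a metalloprotease of IGF-binding proteins, at -0.42 (SE 0.11), followed by Adamtsl1, an ADAMTS-like protein without a protease domain, at -0.20 (SE 0.058). Of 21 substrates 20 were measured and 0 were called without the block, with a median of 0.014. With the block 2 of the 20, Comp and Fmod, were called for PDGF-AA averaged over AMOs, against 0.0964% of all clusters. Comp, which Adamts12 is known to cut, fell by 0.88 on the log2 scale (SE 0.17 without the block; adjusted p = 0.0410 by limma with it, 0.342 without). The collagen-binding proteoglycan Fmod fell by 0.53 (SE 0.081 without the block; adjusted p = 0.0481 by limma with it, 0.322 without). Both are tendon markers too.

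The averages combine unlike values of the AMOs. Comp had a log2 change of -1.36 for pA, 0.076 for 5'ss and -1.34 for control AMO (SE 0.29 each), and Fmod of -0.84, -0.032 and -0.71 in the same order (SE 0.14 each). None of these was called within an AMO, with or without the block. The difference for 5'ss minus control AMO was 1.42 (SE 0.41) for Comp and 0.68 (SE 0.20) for Fmod, each with adjusted p = 1.00 by limma, and 0.464 for Comp and 0.467 for Fmod with the block. The 20 substrates ranged from -0.88 (Comp) to 0.075 (Vwf) in the averaged comparison, with 12 above 0 and 8 below, and 3 had a negative change at an unadjusted p under 0.05.

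For pA against 5'ss AMO, Comp had a log2 change of -0.98 (SE 0.21), with adjusted p = 0.846 by limma and 0.0347 with the block, where 0.0275% of all clusters were called. For 5'ss against control AMO in the presence of PDGF-AA it was 1.37 (SE 0.29), with adjusted p = 0.464 by limma and 0.0255 with the block, where 0.101% of all clusters were called. A further list held 14 AP-1, inflammatory and related regulatory genes, Nfkbia and Tgfb1 among them, not all of which induce MMPs. All 14 were measured and 0 were called for PDGF-AA averaged over AMOs, with a median of -0.016. The smallest p were those of Tnf, with a change of 0.19 (SE 0.097), and Fos, with -0.16 (SE 0.099).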

How the data were processed

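RNA from cultured FAPs was measured on 12 arrays in 6 groups of 2. Per the submitters' processing notes, the authors made the deposited log2 values with RMA in Affymetrix Expression Console, whose versions are not given in the sources used here. That method subtracts background, gives every array the same quantiles and averages the probes of a cluster. Scanner files were not used, so those steps stand as deposited, and an effect that shifts most genes one way would be removed by them.

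Of 35556 clusters, the 21789 with 1 symbol in the platform annotation were tested with limma 3.58.1 in R 4.3.3. A model of 6 group means (6 residual degrees of freedom) was fitted to all arrays, giving 14 comparisons with Benjamini-Hochberg adjustment over all clusters at 0.05. Replicate numbers 1 and 2 recur in every group. Over the 15 pairs of groups, how far arrays with one number stood from their group's mean correlated at 0.197 to 0.613, above the criterion of 0.1. By the data's showing the numbers pair the arrays, though no label says so. The main fit nevertheless left this pairing out, and the block was fitted beside it as an alternative. In the results above, SEs and adjusted p-values are from the unpaired main fit unless the block is named. The replicate block (5 residual degrees of freedom) changed the call of 1 of the 44 genes, and of others among all clusters.

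The genes named are the brightest of each family and those with the smallest p per comparison, with others described by role. Gene IDs of all 44 genes matched RefSeq. The members and lists were chosen with earlier results of these data known, and the promoter scan and the row of genes on chromosome 9 were chosen with values in view. The fit was tested on simulated data whose noise was independent between arrays, so without the pairing by replicate number. The changes put in were larger than any averaged PDGF-AA change of the 44 genes. That test therefore does not show whether changes of the size reported here would be found. Alternatives were the block, trend moderation, scaling, filters on dim clusters and leaving out each array.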

Additional observations from a re-analysis of the deposited data

How the results depend on the processing

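Counts of called genes among the 44 were recomputed 319 times over the 14 comparisons, and 315 equalled the main count of 0. The fits that leave out an array under the block were run for PDGF-AA averaged over AMOs alone, where a fit on only the groups compared is the main fit itself, since it uses all groups. The exceptions all concern PDGF-AA averaged over AMOs and the gene Mmp23: the count was 1 with the replicate block (adjusted p = 0.0481 by limma), 1 with moderation by an intensity trend (0.0474), and 1 with the block and dim clusters left out together (0.0176), a setting added after seeing the data. Leaving out each of the 12 arrays gave counts of 0 to 0 without the block and of 0 to 1 with it, those with it also added after seeing the data. The block, which pairs arrays by replicate number, changed no other call among the 44 genes. Over the 20 other settings (those added later not counted), the adjusted p of Mmp23 lay between 0.0474 and 1.00 and its log2 change between -0.40 and -0.30. All 425 recomputed changes of the 18 results for single genes kept their direction. The median of the 44 genes moved by more than its spread in 17 of 319 cases. With 2 arrays a group, dim genes are limited by signal over background, and no detection calls were used. The deposited summary over probes could not be varied, and the cause of these differences was not tested.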
